A study of Mus musculus with 20 samples.

Results

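Hippocampi of young adult mice labelled F were compared between offspring of dams that had inhaled nano-sized particulate matter (nPM) during pregnancy and offspring of control dams. Samples were chosen by their labels: the 5 nPM samples and the 5 control samples of sex F, which are 10 of the 20 samples of the study, and every gene with enough reads was compared. The labels give the strain as C57BL/6 and the methods of the study as C57BL/6J, and the labels name no transgene or deletion. The control group, called control below, comes from dams kept in filtered air. The nPM group comes from dams that breathed re-aerosolized urban nPM for 5 h a day on 3 days a week, starting on gestational day 2 and ending at birth. The sample labels give the dose as 300 mg/m3, and the methods of the study give the same number in μg/m3. Ages in the labels were 17.71 to 18.29 weeks in control and 18 to 18.29 weeks in nPM, while the methods of the study give a later age at euthanasia, so the animals were examined months after the exposure had ended. The adults came from 5 litters per exposure group, and the litter of each animal is not in the labels, so samples of a group may share a litter. P-values then measure the spread between these samples. The M-labelled samples of the study, used only for comparison, were 18.57 to 19.14 weeks old by their labels. The methods of the study describe injections of EdU, which marks new cells, into male mice before tissue collection. Age, and any effect of these injections, cannot be told apart from sex where F is set against M. RNA came from the right hippocampus of saline-perfused brains, and 600 ng for each library was depleted of ribosomal RNA. In such bulk samples, fewer cells of a type and less RNA per cell cannot be told apart.

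The hippocampus is the brain region best known for forming memories of places and events. Excitatory granule cells of the dentate gyrus and pyramidal cells of the CA fields are its main neurons, and inhibitory interneurons, astrocytes, oligodendrocytes and microglia surround them. nPM is the smallest fraction of urban air particles, and it is studied for its inflammatory and oxidative effects on the brain. Microglia are the resident immune cells of the brain. Astrocytes take up the potassium that active neurons release, and adrenal glucocorticoids reach most hippocampal cells through receptors that switch on a well-known set of genes.

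Some RNA genes in this comparison are best read beside their sequences. Rnu2-10 is a copy of the gene for U2, the small nuclear RNA that recognises the branch site of introns during splicing, and Gm23971 is an identical copy on the opposite strand. A further copy, Gm25939, chosen after its values were seen, is shown because it had more reads than Rnu2-10 in every sample and can be told apart by 3 bases. The sequences below are those of Gencode M21 transcripts on mm10. In Rnu2-10 the capitals mark the bases that pair with the branch site (positions 33 to 38), and in Gm25939 they mark the bases that differ from Rnu2-10, counted from 1 at the 5′ end and written as T69C, C78T and G109C. Mir9-1 encodes miR-9, a microRNA of neural progenitors and neurons, and the study names it for the adult hippocampus. Its mature products are given from RefSeq (GRCm38.p6) with the seed (bases 2 to 8), which pairs with target mRNAs, in capitals.
Rnu2-10, chr11:101658238-101658428, plus strand: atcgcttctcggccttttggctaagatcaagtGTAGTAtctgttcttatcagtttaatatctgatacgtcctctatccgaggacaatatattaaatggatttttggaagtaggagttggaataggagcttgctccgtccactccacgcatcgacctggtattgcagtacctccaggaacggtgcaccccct
Gm25939, chr1:72255008-72255198, plus strand: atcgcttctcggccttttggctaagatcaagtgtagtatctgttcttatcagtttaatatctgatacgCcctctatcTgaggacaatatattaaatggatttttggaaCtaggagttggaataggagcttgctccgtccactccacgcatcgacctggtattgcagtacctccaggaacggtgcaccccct
mmu-miR-9-5p, chr3:88215613-88215635, plus strand: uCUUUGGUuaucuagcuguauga
mmu-miR-9-3p, chr3:88215652-88215673, plus strand: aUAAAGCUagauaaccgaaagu

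The libraries held 19092067 to 35480715 counted reads each (median 29685090 in control and 28694048 in nPM). At these depths a gene with no read in a library could still hold 3, or 0.0846 to 0.157 CPM (counts per library size scaled with TMM factors), a limit that covers counting error only. Xist was at 549 to 1189 CPM in the 10 samples and at 0 to 1.56 CPM in the 10 M-labelled samples, and 4 Y-linked genes had 7 reads over the control samples and 60 over the nPM samples, against 95729 over the M-labelled samples. Some samples stood apart. Sample nPM F1 had 14306 CPM over 12 markers of the choroid plexus, the tissue that secretes cerebrospinal fluid and lies against the hippocampus, and nPM F5 had 3518 CPM, while the other 8 samples had 286 to 1000 CPM. Sample nPM F1 also had 654 CPM over 12 striatal markers against 153 to 188 CPM in the other 9. Sample nPM F4 had the fewest reads and 142 CPM of Rn7s1, the RNA of the signal recognition particle, where the other 9 samples had 1270 to 3561 CPM. Sample control F3 had the highest thalamic marker sum, 496 CPM, against 231 to 350 CPM in the other 9.

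**Figure D1:**
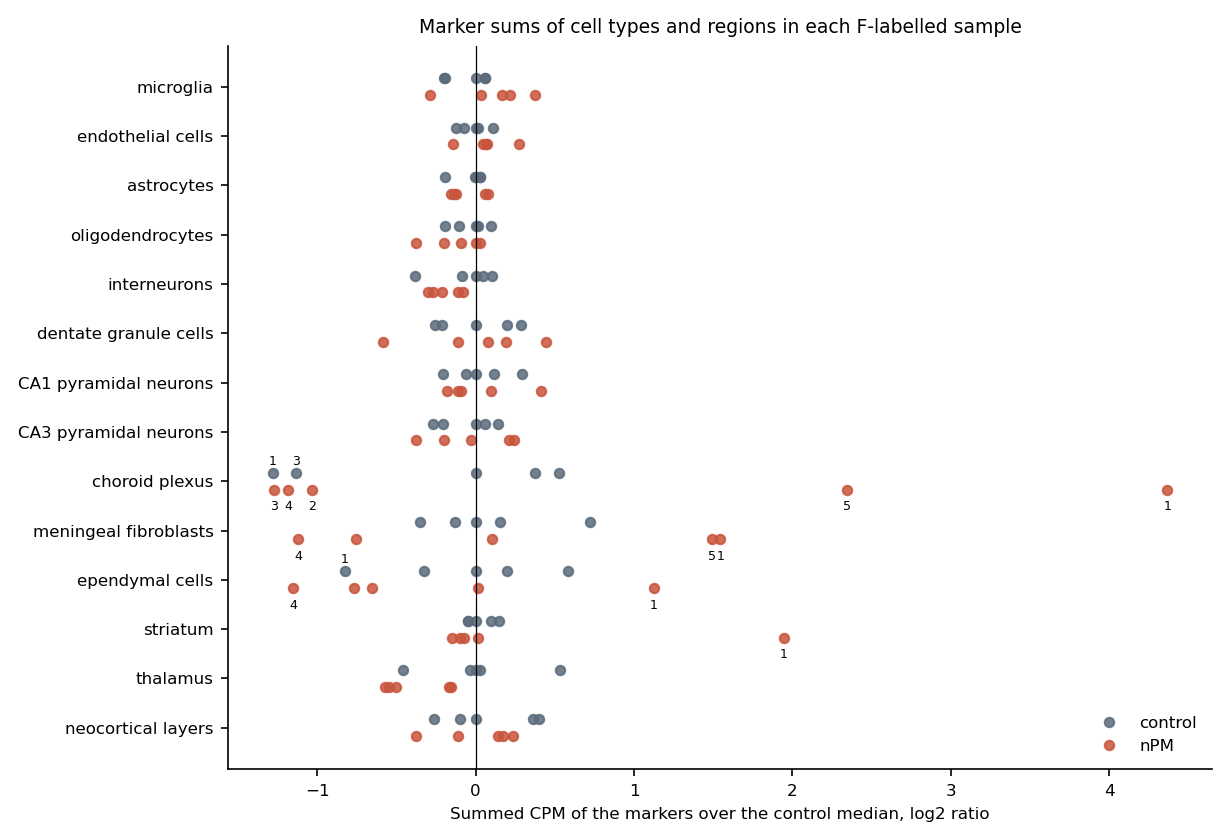
Summed CPM of the markers of 14 cell types and regions in each sample, as the log2 ratio to the control median (x axis), with control samples in grey and nPM samples in red; sample numbers are printed where the ratio exceeds 0.8 in size. Microglia, astrocytes, neurons and oligodendrocytes lie closer to 0, with dentate granule cells the widest of them (651 CPM in nPM F3, 1326 CPM in nPM F1), whereas the choroid plexus sum of nPM F1 (14306 CPM) and nPM F5 (3518 CPM) and the striatal sum of nPM F1 (654 CPM) lie far to the right.

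The hippocampal cell types checked by marker lists were present in both groups, with marker sums that overlapped. All 10 markers of astrocytes, all 15 of microglia and all 12 of dentate granule cells had a mean of at least 1 CPM. Summed markers of astrocytes were 5467 to 6388 CPM in control and 5608 to 6610 CPM in nPM. Those of CA1 pyramidal neurons were 513 to 724 CPM in control and 521 to 789 CPM in nPM. The ranges overlapped for each of the 20 marker sums, which does not show that the levels were equal. A sum also follows its most abundant genes, such as Slc1a2 for astrocytes (4743 CPM of a mean sum of 6146 CPM in control). The smallest exact permutation p, 0.0476, was that of the thalamic markers (354 ± 88.8 CPM in control and 264 ± 39.3 CPM in nPM, SD, n = 5 each), and it was 0.952 after Benjamini-Hochberg adjustment over the 20 sums.

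Of 18886 genes tested by limma-voom, 17 had p under 0.005 (0.09% of the genes), 4 of them higher (0.0212%) and 13 lower (0.0688%) in nPM. Chance alone gives 94.4 genes at this threshold, and none passed a Benjamini-Hochberg adjusted p of 0.05 (smallest 0.586). At p under 0.05 there were 358 genes (1.9%), 170 higher (0.9%) and 188 lower (0.995%), where chance gives 944. Other tools called 21 genes (edgeR quasi-likelihood test, 0 after adjustment) and 47 genes (DESeq2 Wald test, 1 after adjustment, ENSMUSG00000106106.2) at p under 0.005. The number also turned on single samples: it was 45 without nPM F4, of which 36 were higher, and 10 without nPM F5, without control F2 or without control F3. The 17 genes are therefore described below by their values, as the largest differences of this comparison relative to the spread of its samples.

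The same fit bounds what could have been missed. The 95% confidence interval of the log2 fold change lay within -1 to 1, less than a doubling or a halving, for 16337 genes (86.5%), and within -0.5 to 0.5 for 10707 genes (56.7%). Among the 11976 genes with a mean of at least 5 CPM these shares were 97.5% and 84.2%. The median standard error was 0.15 over all genes tested and 0.11 over the genes with at least 5 CPM. Only 137 genes (0.725%) had a log2 fold change over 1 in size.

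**Figure D2:**
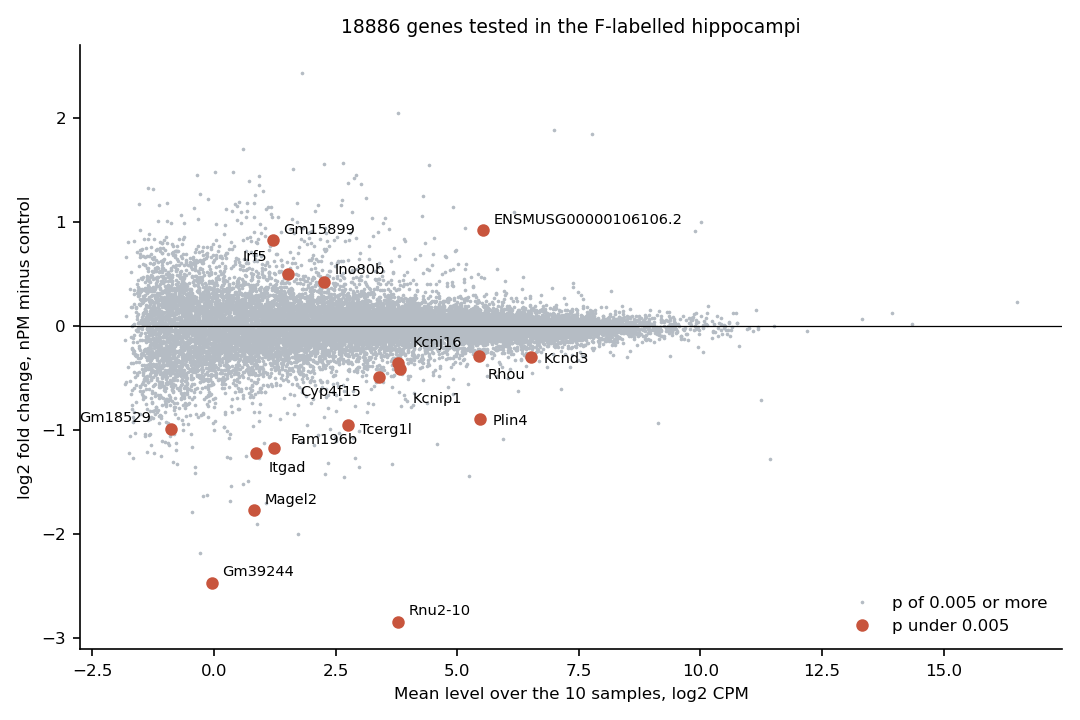
Log2 fold change (nPM minus control, y axis) against the mean level in log2 CPM (x axis) for each of 18886 genes; red points are the 17 genes with p under 0.005. Most points lie close to 0, the spread widens towards low levels, and 13 of the 17 red points lie below 0, down to Rnu2-10 at -2.84.

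Of the 13 lower genes, Kcnd3, Kcnip1 and Kcnj16 encode subunits or partners of potassium channels, a grouping made after their values were seen. Kcnd3 (positions are gene spans on mm10 from the deposited table, here chr3:105452330-105674002) encodes a pore-forming subunit of the A-type channel, a fast potassium current that opens below the spike threshold and limits dendritic excitation. Its levels were 113, 105, 107, 90.0 and 91.6 CPM in control F1 to F5 and 78.9, 87.0, 79.2, 91.5 and 76.9 CPM in nPM F1 to F5. Only nPM F4 reached into the control range. In nPM it differed by -0.29 in log2 units (SE 0.086, limma p = 0.00485, exact permutation p = 0.0159), a change of -18.4%, and its p was under 0.005 in 3 of the 10 fits made without a sample.

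Kcnip1 (chr11:33629339-33993152) encodes a calcium-binding auxiliary protein that brings A-type channels to the membrane and is enriched in interneurons. Control samples had 17.5, 15.6, 19.0, 14.7 and 13.7 CPM, and nPM samples had 11.3, 12.8, 12.9, 13.8 and 10.5 CPM. The groups overlapped only by nPM F4 and control F5. The difference on the log2 scale was -0.41 (SE 0.12, limma p = 0.00419, exact permutation p = 0.0159), or -24.9%, with p under 0.005 in 3 of the 10 fits made without a sample. The related pore subunit Kcnd2, named after its values were seen, was at 177 to 218 CPM in control and 183 to 235 CPM in nPM, and differed by 0.11 in log2 units (SE 0.087, limma p = 0.233, exact p = 0.23). Of 22 voltage-gated potassium channel genes and partners tested, Kcnd3 and Kcnip1 were the 2 with p under 0.005 and also the 2 with p under 0.05. The list had 7 positive and 15 negative log2 fold changes with a median of -0.07, where the median of all genes was 0.0036 and 51.3% were positive and 48.7% negative. Without nPM F1 and nPM F5 the median was 0.01. Markers of interneurons, the cells where Kcnip1 is enriched, had 13 negative values among 18 genes with a median of -0.12 and 0 genes with p under 0.05, and their summed level was 970 to 1355 CPM in control and 1024 to 1198 CPM in nPM. Their part in the Kcnip1 difference was not tested.

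Kcnj16 (chr11:110968033-111027968) encodes an inward rectifier subunit that pairs with the astrocytic channel subunit Kcnj10 and carries potassium uptake by glia. It had 16.1, 16.5, 14.6, 15.4 and 14.3 CPM in control and 9.97, 12.5, 12.7, 12.2 and 13.1 CPM in nPM, and no nPM sample reached the lowest control sample. By limma, nPM differed from control by -0.35 in log2 units (SE 0.10, p = 0.00404, with an exact permutation p of 0.00794), and this exact p is the smallest that 5 against 5 samples can give. The limma p was under 0.005 in 1 of the 10 fits made without a sample. In the M-labelled samples the value was -0.37, and the F value minus the M value was -0.01 (limma interaction, adjusted p = 0.999).

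Kcnj10, named after its values were seen, is the partner of Kcnj16. It was at 134, 112, 110, 99.4 and 115 CPM in control and at 83.0, 84.95, 107, 79.7 and 98.3 CPM in nPM, so that nPM F3 alone lay within the control range. This amounted to -0.33 in log2 units (SE 0.10, limma p = 0.00693, exact permutation p = 0.0159), outside the threshold of 0.005, and it was 0.34 in the M-labelled samples (interaction p = 0.0152). Of 10 astrocyte markers 5 were positive and 5 negative, the median was 0.0022, and 0 had p under 0.05. Slc1a2, the main glutamate transporter, was at 4743 ± 430 CPM in control and 4602 ± 470 CPM in nPM (SD, n = 5 each).

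**Figure D3:**
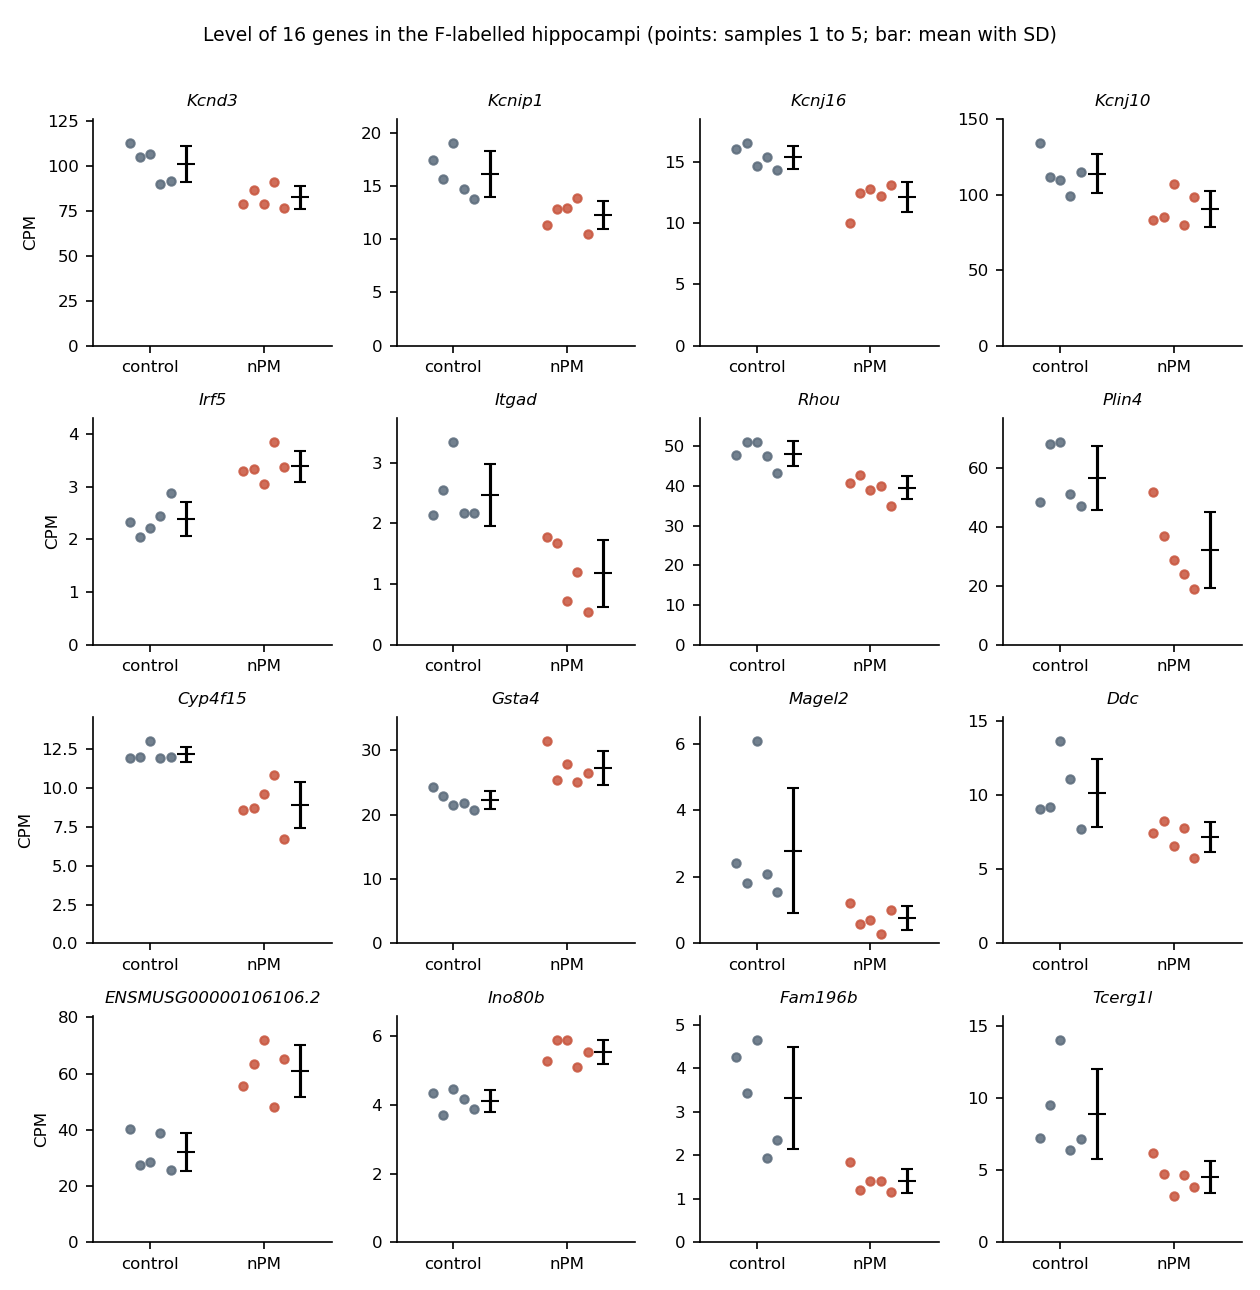
Level in CPM (y axes, each starting at 0) of 16 genes in the 5 control samples (grey) and the 5 nPM samples (red), with the mean and SD as a bar beside each group. Kcnj16, Irf5, Itgad, Rhou, Cyp4f15, Gsta4, Magel2, Ino80b, Fam196b, Tcerg1l and the ribosomal RNA gene ENSMUSG00000106106.2 show no overlap between the groups, while in Kcnd3, Kcnip1, Kcnj10, Plin4 and Ddc the groups overlap.

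Immune genes with p under 0.005 were found in both directions. Irf5 (chr6:29526625-29541871) encodes a transcription factor that acts below Toll-like receptors and drives inflammatory cytokine genes. Control samples had 2.34, 2.04, 2.22, 2.44 and 2.89 CPM, and nPM samples had 3.30, 3.35, 3.05, 3.86 and 3.39 CPM, all above the highest control. In nPM it differed by 0.51 in log2 units (SE 0.15, limma p = 0.00483, exact permutation p = 0.00794), a change of 42.0%, from 53 to 102 reads per sample. Its limma p was under 0.005 in 1 of the 10 fits made without a sample and in 7 of 15 other settings. Irf5 overlaps Tnpo3 on the opposite strand, and the strand setting of the counting is not given in the sources used here.

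Itgad (chr7:128154376-128223816) encodes an alpha integrin subunit of macrophages that pairs with the leukocyte beta subunit. It was at 2.14, 2.54, 3.34, 2.16 and 2.17 CPM in control and at 1.77, 1.67, 0.71, 1.19 and 0.53 CPM in nPM, again without overlap. The difference on the log2 scale was -1.22 (SE 0.31, limma p = 0.00194, exact permutation p = 0.00794), and it was 0.38 in the M-labelled samples (interaction p = 0.00488, adjusted over all genes 0.987). Its span overlaps 5 other annotated genes, 4 of them on the opposite strand. Of 22 integrin subunits tested 17 were positive and 5 negative, with a median of 0.15, and Itgad was the only one with p under 0.005. Itgam (the alpha subunit that marks microglia, log2 fold change 0.40, limma p = 0.0175, exact p = 0.0159), Itga1 (0.24, p = 0.0281, exact p = 0.0238) and Itga6 (0.22, p = 0.0387, exact p = 0.0476) were higher at p under 0.05. Over all genes tested 0.9% were higher at p under 0.05, and 51.3% were positive. Without nPM F1 and nPM F5 the median of the list was -0.02.

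Rhou (chr8:123653929-123663884) encodes a small GTPase close to Cdc42 that acts on the cytoskeleton. It was at 47.8, 51.1, 51.0, 47.5 and 43.3 CPM in control and at 40.8, 42.7, 39.1, 40.1 and 35.0 CPM in nPM. The highest nPM sample lay just below the lowest control sample. By limma, nPM differed from control by -0.29 in log2 units (SE 0.079, p = 0.00312, with an exact permutation p of 0.00794). The limma p was under 0.005 in 3 of the 10 fits made without a sample, and at most 0.0106. Rhou overlaps the gene model Gm20388 on the same strand. Cdc42 itself had a log2 fold change of 0.07 (SE 0.092).

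Rhou was 1 of 40 tested genes on a list of HMGB1 and Toll-like receptor 4 signalling, the danger-signal pathway that the study followed. Over all genes tested 1.9% had p under 0.05, and 51.3% were positive. Of the 40, 23 were positive, the median was 0.02, and 3 had p under 0.05: Rhou, Vcam1 (0.60, limma p = 0.0385, exact p = 0.119) and Icam1 (0.63, p = 0.0387, exact p = 0.0635). The last 2 encode adhesion molecules of activated endothelium, and both were highest in nPM F1 and nPM F5 (Vcam1 70.9 and 46.7 CPM, against 18.7 to 32.1 CPM in the other 8). Hmgb1, the nuclear protein released as a danger signal, was at 69.1 ± 7.50 CPM in control and 68.7 ± 1.84 CPM in nPM (SD, n = 5 each), with a 95% interval of its log2 fold change from -0.18 to 0.17. Tlr4, its receptor, was at 3.57 ± 1.08 and 3.75 ± 0.88 CPM, with an interval from -0.39 to 0.66. Il12a, a cytokine subunit that the study names, did not pass the filter on low counts. It had 20, 16, 10, 25 and 5 reads in control F1 to F5 and 5, 3, 10, 3 and 4 reads in nPM F1 to F5 (exact permutation p = 0.0238), so single reads weigh on this gene.

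Few genes of the immune lists passed a threshold. Over all genes tested 1.9% had p under 0.05, and 51.3% were positive. The medians of the lists below were all positive, and the share of positive genes differed by list. All 15 antigen presentation genes tested had a positive log2 fold change, with a median of 0.36, and 1 had p under 0.05, H2-K1, a class I major histocompatibility gene (0.43, limma p = 0.0454, exact p = 0.167). Of 26 interferon-stimulated genes 24 were positive, with a median of 0.41, and 3 had p under 0.05: Irf5, Rsad2 (0.65, p = 0.0194, exact p = 0.0476) and Gbp3 (0.61, p = 0.0393, exact p = 0.119), the last 2 encoding antiviral effectors. Of 15 microglial markers 14 were positive, with a median of 0.21. Of 21 cytokines and chemokines 12 were positive, with a median of 0.02 and 1 with p under 0.05, Cxcl16 (0.77, limma p = 0.0491, exact p = 0.111). Of 18 complement genes 14 were positive, with a median of 0.09 and 0 with p under 0.05. Genes of a list are measured in the same 10 animals and move together, so these counts are not independent observations.

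H2-K1 was highest in the samples rich in choroid plexus markers. It was at 16.9 CPM in nPM F1 and 17.9 CPM in nPM F5, whereas nPM F2 to F4 had 8.28 to 12.9 CPM and control samples had 8.48 to 12.3 CPM. Without these 2 samples, an alternative chosen after the data were seen, the median of the antigen presentation list was 0.02 with 9 of 15 positive, that of the interferon list 0.15 with 20 of 26 positive, that of the microglial list 0.06 with 10 of 15 positive, and that of the complement list -0.10 with 4 of 18 positive. B2m, the light chain of class I molecules, did not separate these samples: it was at 57.7 CPM in nPM F1 and 53.7 CPM in nPM F5, against 55.1 CPM in control F1 and 54.3 CPM in control F4. With single samples left out the medians ranged from 0.29 to 0.47 for the interferon list, from 0.11 (without nPM F1) to 0.48 for the antigen presentation list, and from 0.079 to 0.29 for the microglial list. Leaving out nPM F4 alone raised the medians. That of the antigen presentation list was then 0.48 with 15 of 15 positive, and that of the interferon list 0.46 with 26 of 26 positive. The microglial list had 0.29 with 15 of 15 positive, and the complement list 0.24 with 13 of 18 positive. All 12 choroid plexus markers had a mean of at least 1 CPM, 11 of the 12 were positive in nPM with a median of 0.95, and the median was -1.47 with 0 positive without nPM F1 and nPM F5. In the M-labelled samples the medians of the antigen presentation, interferon and microglial lists were -0.11, -0.07 and 0.02. The part of choroid plexus tissue in the immune lists was not tested further.

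P2ry12, a receptor of resting microglia, had a log2 fold change of 0.23 (SE 0.12, p = 0.073, exact p = 0.135). The summed microglial markers were 306 to 366 CPM in control and 289 to 456 CPM in nPM (exact permutation p = 0.222). They were highest in nPM F3, a sample with few choroid plexus markers (287 CPM), and lowest in nPM F4.

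**Figure D4:**
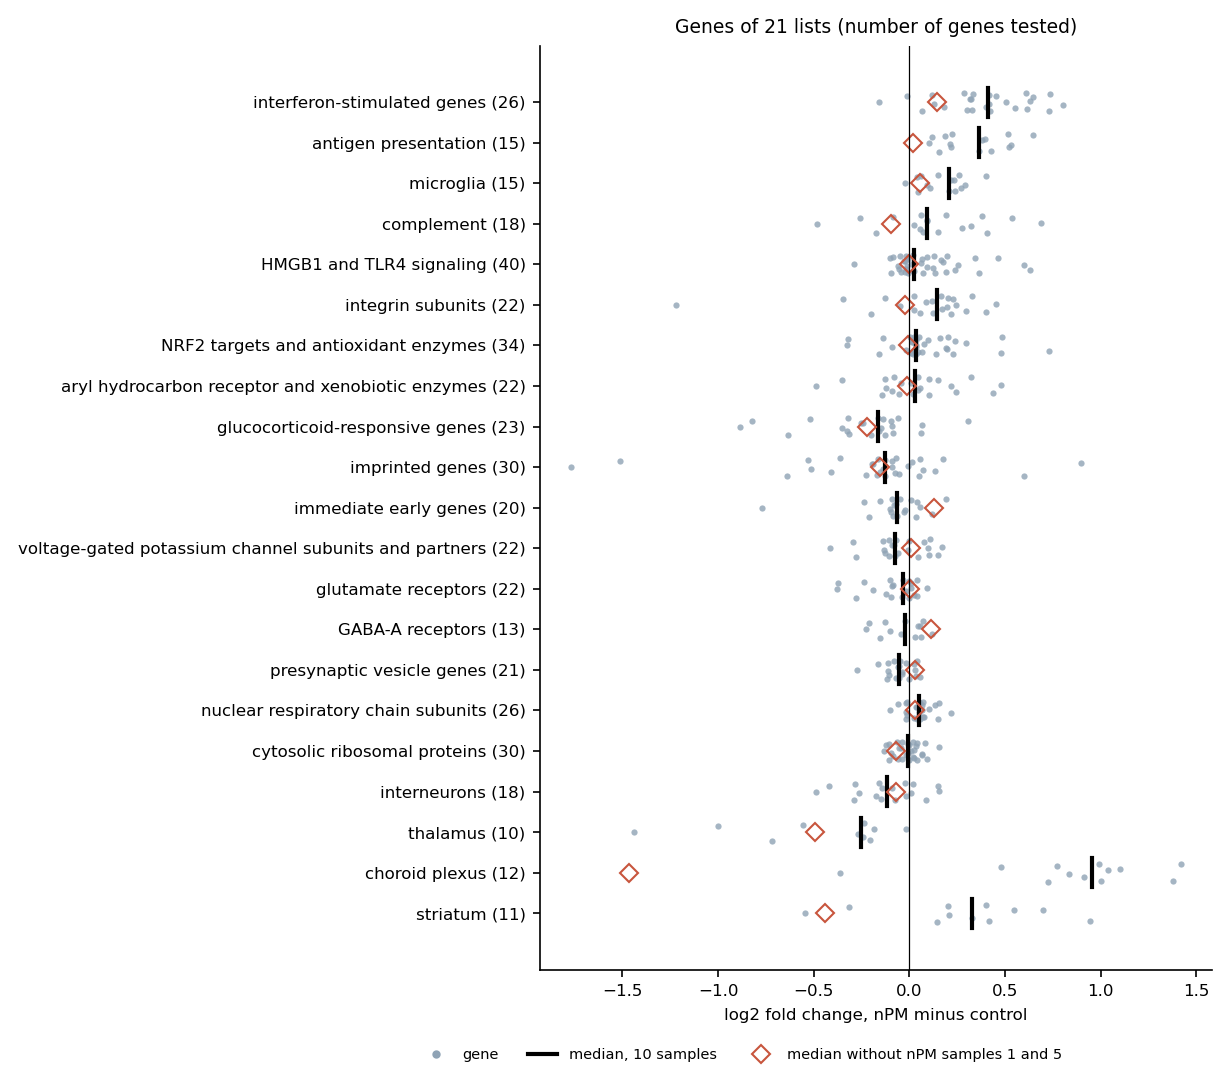
Log2 fold change (x axis) of the tested genes of 21 lists (y axis, number of genes in brackets): each dot is a gene, the black bar the median of the list over the 10 samples, and the open red diamond the median without nPM samples 1 and 5. The interferon and antigen presentation bars lie at 0.41 and 0.36 and their diamonds at 0.15 and 0.02, while the glucocorticoid list has its bar at -0.16 and its diamond at -0.22.

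Plin4 (chr17:56100591-56109803), a perilipin that coats lipid droplets and is induced by glucocorticoids in brain, was at 48.2, 67.9, 68.7, 50.9 and 46.8 CPM in control and at 51.8, 36.8, 28.8, 23.9 and 18.7 CPM in nPM. Sample nPM F1 lay within the control range and the other 4 nPM samples lay below it. In nPM it differed by -0.89 in log2 units (SE 0.23, limma p = 0.0022, exact permutation p = 0.0317), a change of -45.9%. Without 1 sample at a time its p was under 0.005 in 5 of 10 fits.

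Of 23 glucocorticoid-responsive genes tested 20 were negative and 3 positive, with a median of -0.16, and 4 had p under 0.05, all negative: Plin4, Hif3a (-0.63, limma p = 0.0238, exact p = 0.0556), Arrdc2 (-0.52, p = 0.0319, exact p = 0.103) and Cdkn1a (-0.82, p = 0.0356, exact p = 0.103). Cdkn1a encodes a cell cycle inhibitor, Hif3a a regulator of the hypoxia response and Arrdc2 an arrestin-like adaptor. The other 19 did not pass p under 0.05. Over all genes tested 1.9% passed it, and 48.7% were negative. Arrdc2 was at 17.9 to 26.1 CPM in control, at 21.2 and 24.9 CPM in nPM F1 and F2, and at 13.3, 14.2 and 9.73 CPM in nPM F3 to F5. The classical targets Fkbp5, a co-chaperone of the receptor (-0.25, p = 0.0851, exact p = 0.119), and Tsc22d3, an anti-inflammatory leucine zipper protein (-0.32, p = 0.0557, exact p = 0.119), both named after their values were seen, did not pass. Fkbp5 was at 53.4 to 79.4 CPM in control and 41.0 to 68.2 CPM in nPM. The receptors Nr3c1 and Nr3c2 were among the 3 positive genes, and Nr3c2 had a log2 fold change of 0.07 (SE 0.13). The median of the list stayed between -0.26 and -0.10 when single samples were left out, and was 0.0012 in the M-labelled samples. Without nPM F1 and F5 it was -0.22 with 4 of 23 positive, and 1 of the 23 genes then had p under 0.05. The hour of tissue collection is not given in the sources used here, and 19 circadian clock genes had a median of -0.02, 7 of them positive and 0 with p under 0.05.

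Cyp4f15 (chr17:32685627-32703352), a cytochrome P450 that oxidises fatty acids and eicosanoids, had control samples that lay close together. Control samples had 11.9, 11.99, 13.03, 11.9 and 11.96 CPM and nPM samples had 8.61, 8.70, 9.62, 10.8 and 6.74 CPM. All nPM samples lay below all control samples. The difference on the log2 scale was -0.49 (SE 0.12, limma p = 0.00153, exact permutation p = 0.00794), a change of -28.7%, and its p stayed under 0.005 in each of the 10 fits made without a sample, which held for 2 of the 17 genes. Cyp4f15 belongs to a cluster of close paralogs that can share reads. The other 21 tested genes for the aryl hydrocarbon receptor and xenobiotic enzymes had p above 0.05, and the list had 13 positive genes and a median of 0.03.

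Gsta4 encodes a glutathione transferase that removes lipid peroxidation products. It was at 24.3, 22.9, 21.5, 21.9 and 20.8 CPM in control and at 31.5, 25.4, 27.9, 25.1 and 26.6 CPM in nPM, with all nPM samples above all control samples. By limma, nPM differed from control by 0.29 in log2 units (SE 0.087, p = 0.00513, with an exact permutation p of 0.00794), just outside the threshold of 0.005, and -0.15 in the M-labelled samples (interaction p = 0.00471). Of 34 NRF2 targets and antioxidant enzymes 28 were positive with a median of 0.04, and Gsta4 was the 1 gene with p under 0.05. Sod1, the cytosolic superoxide dismutase, had 0.16 (SE 0.083, p = 0.0764, exact p = 0.0873). Without nPM F1 and F5, 15 of the 34 were positive.

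Magel2 led a list of imprinted genes, which are read only or mainly from a single parental copy, some of them only in certain tissues. Whether each listed gene is imprinted in hippocampus was not tested. Magel2 (chr7:62377010-62381640) is expressed from the paternal copy in the Prader-Willi region and acts on endosomal protein sorting, mostly in the hypothalamus. It was at 2.43, 1.81, 6.09, 2.08 and 1.53 CPM in control and at 1.23, 0.57, 0.71, 0.28 and 0.996 CPM in nPM, from 5 to 195 reads. The groups did not overlap, and control F3 was far above the other control samples. This amounted to -1.77 in log2 units (SE 0.45, limma p = 0.00193, exact permutation p = 0.00794). It was 0.55 in the M-labelled samples, and the F value minus the M value was -2.33 on the log2 scale (limma interaction, adjusted p = 0.987).

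Over all genes tested 48.7% were negative and 1.9% had p under 0.05. Of 30 imprinted genes tested 22 were negative and 8 positive, with a median of -0.13, and 5 had p under 0.05, all negative. Beside Magel2 these were Ddc, the decarboxylase that makes dopamine and serotonin (-0.53, limma p = 0.00788, exact p = 0.0238), Usp29, a deubiquitinase gene of the Peg3 domain (-0.41, p = 0.0334, exact p = 0.0714), Peg10, a retrotransposon-derived gene (-0.64, p = 0.0455, exact p = 0.0397), and Blcap (-0.17, p = 0.0466, exact p = 0.0397). Peg10 and Blcap were named after their values were seen. Ddc was at 9.05, 9.21, 13.7, 11.1 and 7.76 CPM in control and at 7.46, 8.27, 6.57, 7.82 and 5.74 CPM in nPM. Control F3, the sample with the highest thalamic sum, was also the highest control sample for Magel2, Ddc, Usp29 (116 CPM, others 57.4 to 81.2 CPM) and Peg10 (43.8 CPM, others 13.9 to 18.2 CPM). All 10 thalamic markers tested were negative, with a median of -0.25, and 1 had p under 0.05, Zic1 (-1.44, p = 0.0283, exact p = 0.0714), which was at 115 CPM in control F3 and 6.24 to 65.9 CPM in the other 9 samples. The median of the imprinted list stayed negative, between -0.17 and -0.06, when single samples were left out. The part of thalamic tissue in these genes was not tested.

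The gene with the smallest p of all was a ribosomal RNA gene. ENSMUSG00000106106.2 (chr17:39846353-39848827), which has no symbol, was at 40.3, 27.4, 28.6, 38.9 and 25.8 CPM in control and at 55.6, 63.4, 72.0, 48.2 and 65.0 CPM in nPM. All nPM samples were above all control samples. In nPM it differed by 0.92 in log2 units (SE 0.15, limma p = 3.1e-05, exact permutation p = 0.00794), and its p stayed under 0.005 in each of the 10 fits made without a sample. It overlaps Gm42418, which had 181 ± 160 CPM in control and 116 ± 17.1 CPM in nPM (SD, n = 5 each, log2 fold change -0.26, SE 0.42). Ribosomal RNA was depleted from these libraries, so the reads are what the depletion left. Mitochondrial ribosomal RNA, the largest remaining class, took 9.16% to 11.4% of the reads in control and 10.2% to 13.3% in nPM (exact permutation p = 0.127). The part of the depletion in this difference was not tested.

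Rnu2-10 had the largest log2 fold change in size of the 17 genes. It was at 13.2, 12.9, 20.3, 43.4 and 15.5 CPM in control and at 1.498, 21.5, 1.28, 6.97 and 0.90 CPM in nPM. Sample nPM F2 was above 4 of the 5 control samples, and the other 4 nPM samples were below all of them. The difference on the log2 scale was -2.84 (SE 0.68, limma p = 0.0012, exact permutation p = 0.0397). In the M-labelled samples it was -1.03 (limma interaction, adjusted p = 0.987).

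Total U2 RNA did not follow this copy. Of 1383 small nuclear RNA transcripts searched, 13 loci had at least 95% identity to the 191 bases of Rnu2-10 printed above, and 4 of them were identical. Summed over the 13 loci, U2 was at 532, 393, 358, 512 and 571 CPM in control and at 504, 449, 398, 511 and 517 CPM in nPM, a log2 difference of 0.02 (exact permutation p = 0.905). Summed over the 4 identical loci it was 245 ± 52.4 CPM in control and 231 ± 29.2 CPM in nPM (SD, n = 5 each), a log2 difference of -0.07. Rnu2-10 held 2.49% to 8.47% of the U2 reads in control and 0.173% to 4.78% in nPM. Gm23971, whose 191 bases equal those of Rnu2-10, was at 221 ± 54.7 and 222 ± 34.2 CPM. Identical copies cannot be told apart by a read that lies within them, so the value of a single copy depends on how the aligner placed such reads.

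**Figure D5:**
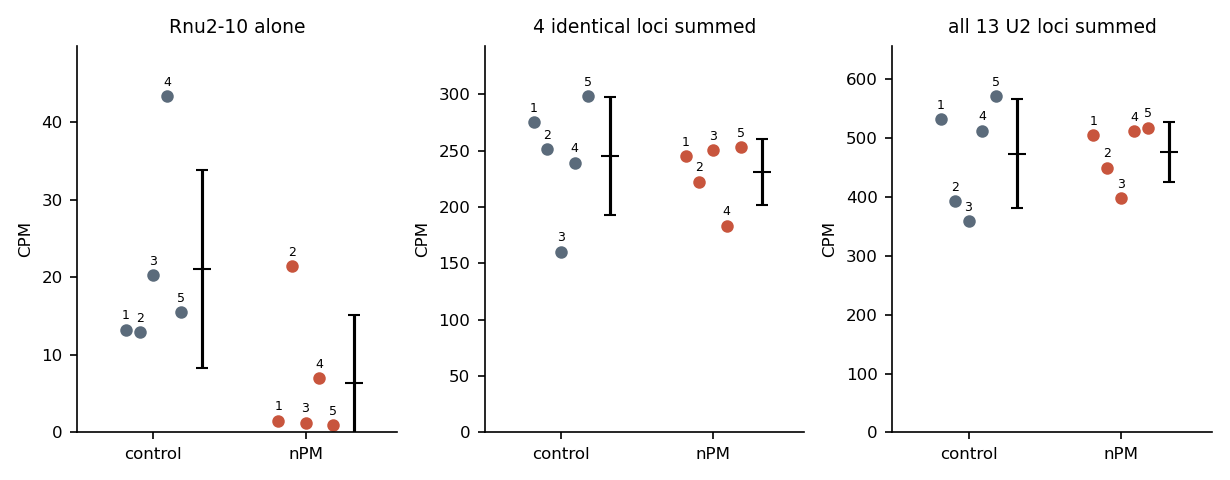
CPM (y axes, starting at 0) of Rnu2-10 alone, of the 4 loci with the identical sequence summed and of all 13 U2 loci summed, in control (grey) and nPM (red) samples with their numbers; bars are means with SD, and the lower SD bar of nPM in the first panel is cut at 0. Rnu2-10 is low in nPM samples 1, 3, 4 and 5, while the sums have nearly equal means (473 and 476 CPM over the 13 loci).

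Mir9-1, the precursor locus of the miR-9 sequences printed above, was at 0.55, 0.77, 0.66, 0.84 and 0.86 CPM in control and at 0.99, 1.004, 1.81, 0.74 and 1.36 CPM in nPM. Sample nPM F4 lay within the control range and the other 4 nPM samples lay above it. By limma, nPM differed from control by 0.67 in log2 units (SE 0.27, p = 0.0271, with an exact permutation p of 0.0317), and it was 0.96 in the M-labelled samples (interaction p = 0.461). These libraries read longer RNA that covers the locus, so the value is not a level of the mature microRNA.

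Among the remaining genes with p under 0.005 was Ino80b (chr6:83121765-83125431), a subunit of the INO80 chromatin remodeller. It was at 4.35, 3.70, 4.47, 4.16 and 3.88 CPM in control and at 5.28, 5.88, 5.89, 5.10 and 5.55 CPM in nPM. The groups did not overlap, and the log2 fold change was 0.43 (SE 0.12, limma p = 0.00368, exact p = 0.00794). Nop53, a factor of ribosome assembly, had non-overlapping groups of 26.4 to 32.4 CPM in control and 33.4 to 40.1 CPM in nPM, with a log2 fold change of 0.27 (SE 0.082, p = 0.00602, exact p = 0.00794). Of 30 cytosolic ribosomal protein genes 13 were positive, the median was -0.0058, and all 30 had a 95% interval within -0.5 to 0.5.

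Tcerg1l (chr7:138208974-138397730), a relative of a transcription elongation regulator, was at 7.27, 9.56, 14.1, 6.43 and 7.18 CPM in control and at 6.20, 4.78, 3.19, 4.71 and 3.85 CPM in nPM. Fam196b (chr11:34314822-34422640) was at 4.25, 3.43, 4.65, 1.94 and 2.35 CPM in control and at 1.84, 1.20, 1.42, 1.42 and 1.16 CPM in nPM. Control F3 was the highest sample for both genes. Among the lower genes it was also the highest for Magel2, Itgad, Cyp4f15, Plin4, Kcnip1, Gm39244 and Gm18529. It was not the highest for Kcnd3, Kcnj16, Rhou and Rnu2-10. The log2 fold changes were -0.95 (SE 0.25, limma p = 0.00234, exact p = 0.00794) for Tcerg1l and -1.17 (SE 0.29, p = 0.00148, exact p = 0.00794) for Fam196b, with interaction p of 0.0195 and 0.016. Fam196b lies within Dock2 on the opposite strand.

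The last 3 of the 17 are annotated as pseudogenes or non-coding. The pseudogene Gm15899, inside Cbfa2t3, was at 1.26 to 1.97 CPM in control and 2.04 to 3.97 CPM in nPM (log2 fold change 0.83, limma p = 0.0034, exact p = 0.00794). The long non-coding RNA Gm39244 had 18 to 94 reads in control and 40, 3, 8, 4 and 1 reads in nPM (-2.46, p = 0.00451, exact p = 0.0317), and the pseudogene Gm18529, which overlaps 3 other gene models, had 13 to 32 reads in control and 5 to 12 reads in nPM (-0.98, p = 0.00487, exact p = 0.00794). Without a sample, p was under 0.005 in 4, 2 and 0 of the 10 fits for Gm15899, Gm39244 and Gm18529. The last 2 were the 2 of the 17 with a mean under 50 reads, where single reads weigh most.

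In 57 genes (0.302%) the 5 nPM values and the 5 control values did not overlap, 35 with nPM higher (0.185%) and 22 with nPM lower (0.116%). Chance alone separates the groups in a share of 0.00794 of the genes, more than was seen. Of the 17 genes with p under 0.005, 12 did not overlap and 5 did. Among the 23 non-overlapping genes with a mean of at least 5 CPM, the lowest log2 fold changes were those of Tcerg1l, Cyp4f15, Kcnj16, Rhou and 1700025G04Rik (-0.25, limma p = 0.00596, exact p = 0.00794). The highest were those of the ribosomal RNA gene, Ccdc107, Swap70, Gsta4 and Nop53. Swap70, an exchange factor for Rac, was at 9.75 to 11.96 CPM in control and 12.4 to 16.9 CPM in nPM (0.34, p = 0.0132, exact p = 0.00794). Ccdc107 was at 7.37 to 9.78 CPM in control and 10.4 to 13.3 CPM in 4 nPM samples, but at 61.6 CPM in nPM F4, and its log2 fold change of 0.82 had limma p = 0.0606 (exact p = 0.00794).

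Genes of neurons and synapses differed little. Of 22 glutamate receptor genes 6 were positive with a median of -0.03, all 22 had an interval within -1 to 1, and 1 had p under 0.05, the kainate receptor subunit Grik3 (-0.37, limma p = 0.0445, exact p = 0.0952). Of 13 GABA-A receptor genes 6 were positive with a median of -0.02 and 0 had p under 0.05. Of 21 presynaptic vesicle genes 5 were positive with a median of -0.05, and Vamp2, the vesicle protein that drives fusion, had p under 0.05 (-0.27, p = 0.0232, exact p = 0.0635). It was at 323 ± 36.9 CPM in control and 267 ± 35.7 CPM in nPM (SD, n = 5 each). Of 22 postsynaptic scaffold genes 8 were positive with a median of -0.01. Among 21 monoamine receptors, the serotonin receptor gene Htr7 was lower at p under 0.05 (-0.34, p = 0.0173, exact p = 0.0238). Medians of the GABA-A, monoamine and postsynaptic lists changed sign under other settings.

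Genes switched on by neuronal activity were spread widely between samples. Npas4, a transcription factor of active neurons, was at 5.68, 11.4, 7.72, 13.8 and 8.67 CPM in control and at 3.34, 6.02, 6.28, 6.41 and 5.65 CPM in nPM. Control F1 alone lay within the nPM range. This amounted to -0.77 in log2 units (SE 0.26, limma p = 0.0126, exact permutation p = 0.0317), and Npas4 was the only one of 20 immediate early genes with p under 0.05. The list had a median of -0.07, and Arc, a synaptic plasticity gene, was at 158 ± 111 CPM in control and 126 ± 50.5 CPM in nPM (SD, n = 5 each). Without nPM F1 and F5 the median was 0.13.

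The immature neurons of the dentate gyrus are made through adult life, and 14 of their markers were tested. Of these 8 were positive with a median of 0.02, and 1 had p under 0.05, Top2a, an enzyme of dividing cells (0.70, p = 0.0257, exact p = 0.0873). Top2a was at 2.17 to 3.34 CPM in control and at 6.98, 2.15, 4.37, 3.23 and 4.08 CPM in nPM, highest in nPM F1. The summed level of the immature neuron markers was 319 to 484 CPM in control and 356 to 472 CPM in nPM. Most of this sum (mean 421 CPM in control) came from Tubb3 (154 CPM) and Stmn1 (140 CPM), so it says little about the other markers.

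Few genes of metabolism passed p under 0.05. Of 26 nuclear respiratory chain subunits 19 were positive with a median of 0.05, 25 had a 95% interval within -0.5 to 0.5, and 1 had p under 0.05, Ndufs3, a subunit of complex I (0.22, limma p = 0.0429, exact p = 0.0714). Of 25 genes of insulin, leptin and growth factor signalling 15 were positive with a median of 0.04, and 1 had p under 0.05, Igfbp4, a binding protein of insulin-like growth factors (0.28, limma p = 0.0362, exact p = 0.0556), while 20 of the 25 had an interval within -1 to 1. Of 17 DNA methylation enzymes and readers 0 had p under 0.05, the median was 0.02, and all 17 had an interval within -1 to 1.

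The F difference was set against that of the M-labelled samples by the interaction term of 1 fit over all 20 samples. The F and M samples also differ in age. Of 19797 genes tested, 43 had an interaction p under 0.005 (0.217%) and 751 had p under 0.05 (3.79%), and 0 passed after adjustment (smallest 0.413). Of the 17 genes with p under 0.005 in F, 3 had an interaction p under 0.005 (Magel2, Itgad and Gm18529), and 7 had it under 0.05. These 17 were chosen on F values that also enter the interaction, so a high share among them is built in. Their sign was the same in M for 11 of the 17, and 0 of the 17 had p under 0.05 in M. For the potassium channel genes Kcnd3, Kcnip1 and Kcnj16 the interaction p was 0.176, 0.0574 and 0.974, so a difference between F and M was not shown for them.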

How the data were processed

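Total RNA depleted of ribosomal RNA (RiboZero Gold) was sequenced on an Illumina instrument. Per the labels and methods, the authors trimmed reads with Trimmomatic, aligned them to mm10 with HISAT2 and counted them with featureCounts 1.5.0-p3. The deposited values are raw counts for 48709 genes, of which 343 carry no symbol. The strand setting and the treatment of reads with several matches are not given in the sources used here.

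The F-labelled samples were fitted alone with limma-voom (limma 3.58.1, edgeR 4.0.16 for TMM factors, R 4.3.3) after removal of low counts (filterByExpr, minimum 10 in a sample and 15 in total), which left 18886 genes. The threshold was p under 0.005, beside Benjamini-Hochberg adjusted p under 0.05. CPM uses TMM-scaled library sizes, and totals of 19092067 to 35480715 counts set the precision. Exact permutation tests (on log2 CPM for genes) were two-sided over 252 groupings, so p cannot go below 0.00794. The interaction was fitted over all 20 samples (19797 genes). The fit was tested on simulated data. Alternatives were edgeR quasi-likelihood, DESeq2 1.42.0, other scalings, filters, covariates and left-out samples.

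The genes named are those with p under 0.005, the 5 highest and 5 lowest non-overlapping genes with a mean of at least 5 CPM, from each list the 3 with the smallest p and the 2 most abundant, the 5 with the smallest interaction p, sex markers and genes the study names. Others are said to have been chosen after their values were seen. The gene lists and rules were chosen with earlier results of these data known, so no pattern over a list is independent support. A few results are not reported here.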

Additional observations from a re-analysis of the deposited data

Results flagged for a closer look

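In 6 of 98 groups of 5 samples examined, a single sample lay far from the other 4 by Dixon's criterion, where chance gives about 1 in 20, or 4.9 groups. Cyp4f15 was at 3.71 log2 CPM in control F3 and at 3.58 to 3.59 in the other control samples. Kcnj16 was at 3.32 log2 CPM in nPM F1 and at 3.62 to 3.72 in the other nPM samples. Small nucleolar RNA took 0.121% of the counts in control F1 and 0.0899% to 0.0984% in the other control samples. Antisense genes took 0.309% in nPM F4 and 0.153% to 0.169% in the other nPM samples. The summed astrocyte markers were at 12.4 on the log2 CPM scale in control F1 and at 12.6 in the other control samples, and the summed striatal markers were at 9.35 in nPM F1 and at 7.27 to 7.42 in the other nPM samples.

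Of the 43 genes with an interaction p under 0.005, 10 are named by the rules used here, and for these the nPM difference in F-labelled samples departed from that in M-labelled samples by the interaction term of limma, none of them past an adjusted p of 0.05 (smallest over all genes 0.413). The F value minus the M value on the log2 scale was -2.33 for Magel2, -1.62 for Itgad, -2.0 for Gm18529 and 0.418 for Gsta4. The 5 smallest interaction p belonged to Ddx3y (3.33), Gm16418 (0.867), Slc25a24 (1.06), Ttc30a2 (-2.39) and Gm19335 (-1.48). The Y-linked genes Ddx3y and Kdm5d (1.90) had few reads in the F-labelled samples and did not pass the filter on low counts there. They entered the interaction fit through the reads of the M-labelled samples, so their values rest on few reads on the F side. Ddx3y had 0, 0, 0, 1 and 0 reads in control F1 to F5 and 4, 2, 7, 7 and 6 in nPM F1 to F5. Together, 4 Y-linked genes had 0 to 3 reads per control sample and 4 to 20 per nPM sample. The source of these reads was not tested.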

How the results depend on the processing

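The number of genes with p under 0.005 was 17 (4 higher, 13 lower) and moved with the processing. It was 75 (38 and 37) with no filter on low counts, 47 (20 and 27) with DESeq2, 41 (18 and 23) with sample quality weights and 10 (7 lower) with age as a covariate. The higher genes were 2 with no scaling factor, 10 with the edgeR quasi-likelihood test and 15 in 1 fit of the 4 groups. Chosen after seeing the data, leaving out nPM F1 and F5 gave 32 (27 lower), and leaving out nPM F4 and control F3 gave 12 higher and 5 lower. With single samples left out it ranged from 10 to 45 (1 to 36 higher, 5 to 28 lower), being 45 without nPM F4 and 31 without nPM F1. Adjusted calls stayed at 0 there (0 to 0), and DESeq2 gave 1. The share of genes with an interval within -1 to 1 was 50.6% with no filter and 81.6% to 84.6% with a sample left out. Non-overlapping genes numbered 131 with no filter and 92 to 214 with a sample left out, when fewer values must separate.

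The interaction count of 43 (13 higher, 30 lower) was 149 (81 and 68) with no filter, 66 (35 higher, 1 adjusted call) with edgeR, 89 (41 and 48) with DESeq2 and 27 to 81 (8 to 29 higher, 13 to 52 lower) with a sample left out. Of the 17 genes, 0 turned direction: p stayed under 0.005 in 81 of 170 fits without a sample and in 206 of 281 other fits. The sum of the 13 U2 loci differed by 0.0244 where Rnu2-10 alone differed by -2.84. Hmgb1 changed sign in 7 of 27 settings and Tlr4 in 3, all with p above 0.05. With a replicate block 26 genes (15 higher, 11 lower) had p under 0.005, but same-numbered samples correlated at -0.168 to 0.0577 and 0 samples correlated best with their own number, so the numbers do not pair the samples. The causes of these shifts were not tested.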
